A study of Homo sapiens with 6 samples.

Results

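The BMP and TGF-beta signalling genes were followed across RNA-seq libraries of HepG2, a human hepatocellular carcinoma cell line. They were taken by gene symbol from a list of 44 ligands, receptors, SMAD proteins, regulators and target genes. Of the 44, 41 had values in a table of 20026 genes, and *BMP2*, *INHBA* and *NOG* were not analysed here. The 6 libraries formed 3 groups of 2. Scr was the scramble control, with the genotype WT on its labels. The groups miR-23a KO and miR-27a KO were HepG2 cells edited with CRISPR/Cas9 from the PX458 plasmid, which carried a pair of sgRNAs cutting on either side of the mature miRNA, and were grown from single cells sorted by GFP. Scr cells received that plasmid without a targeting sequence, according to the study's methods. No treatment was named for any group. The methods speak of several clones of each KO, and the labels do not say whether the 2 libraries of a group came from separate clones or cultures, so the p-values measure only the spread between these libraries, which may be technical. Parts of the labels read as if written for other cells, with a cell type that is not a class of liver cancer and a design text on sorting by miRNA activity, and the titles were followed. Neither the mature miRNAs nor the edited loci were analysed here, and the titles alone set the groups. The counts summed to 14891283 and 14405247 for Scr, to 16515266 and 15930762 for miR-23a KO and to 15850575 and 15947316 for miR-27a KO.

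Ligands of the TGF-beta family are secreted dimers that bring together type II and type I receptors, which are kinases of the cell surface. An activated type I receptor phosphorylates SMAD1, SMAD5 and SMAD9 in the BMP branch or SMAD2 and SMAD3 in the TGF-beta and activin branch, and these enter the nucleus with SMAD4 and switch target genes on or off. The ID genes are classical direct targets of BMP signals, while SMAD6, SMAD7, the SMURF ubiquitin ligases and BAMBI restrain the pathway. In the liver, TGF-beta restrains the growth of hepatocytes and drives fibrosis, and BMP signals set the level of hepcidin, the hormone of iron balance.

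The comparisons ask how gene expression differs in HepG2 cells edited at each miRNA. Both miRNAs come from 1 primary transcript, and since the levels of its other miRNAs were not analysed here, a difference cannot be assigned to the loss of a single miRNA. Mature miRNAs pair with messenger RNA mainly through their seed, bases 2 to 8. The mature sequences are shown because the edited miRNAs define the groups, with the seed in capitals, from RefSeq on GRCh38.p14. Both lie on the minus strand of chromosome 19, miR-23a-3p at chr19:13836595-13836615 and miR-27a-3p at chr19:13836447-13836467.
miR-23a-3p: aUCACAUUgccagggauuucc
miR-27a-3p: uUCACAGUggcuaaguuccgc

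A site was counted where the longest annotated 3'-UTR of a gene in GENCODE release 29 (GRCh38) held an exact match of 7 bases to a seed, AATGTGA for miR-23a-3p and ACTGTGA for miR-27a-3p. Such a match is a description of the sequence and not a proof of binding. A 3'-UTR was annotated for all 41 members. Of these, 15 (36.6%) held a miR-23a-3p site, where 19.3% of the 15891 genes with a 3'-UTR had a site. A miR-27a-3p site lay in 13 members (31.7%), against 16.7% of those genes. The 3'-UTRs of the members were also longer, with a median of 2211 bases against 1224. They ran from 145 bases for *SMAD1* to 32870 for *SMAD2*, so whether a site was counted depends on the transcripts annotated. Sites of both miRNAs were found in *BMPR2*, *ACVR1C*, *TGFBR3*, *SMAD5*, *SMAD9* and *SMAD2*, and sites of neither in 19 members, among them *ID1*, *BMP4*, *BAMBI* and *FST*. With 6 bases matched in place of 7, 23 members had a miR-23a-3p site (56.1%, against 39.5% of all genes with a 3'-UTR) and 25 a miR-27a-3p site (61.0%, against 44.7%).

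The sites of the members that passed the test in miR-27a KO cells, and those of *TGFBR2*, are printed with the matched bases in capitals, on the strand of the gene. *BMPR2* had 1 miR-23a-3p site at chr2:202563968-202563974 and miR-27a-3p sites at chr2:202559819-202559825, chr2:202561146-202561152 and chr2:202565972-202565978, all on the plus strand. On the minus strand, *ACVR1* had its miR-27a-3p site at chr2:157737334-157737340 and *ID3* at chr1:23558259-23558265. That of *ID2* lay at chr2:8683872-8683878 on the plus strand. *TGFBR2* had no miR-27a-3p site and had 2 miR-23a-3p sites, at chr3:30692894-30692900 and chr3:30693982-30693988 on the plus strand.
BMPR2, miR-23a-3p site: cattggttctgAATGTGAaaatatttaaa
BMPR2, miR-27a-3p site 1: tgaatcgctggACTGTGAagtcaacaata
BMPR2, miR-27a-3p site 2: tgacctaaaacACTGTGAggaaaaatcat
BMPR2, miR-27a-3p site 3: attctgttattACTGTGAtgtttgtagtg
ACVR1, miR-27a-3p site: ctcgctcgatgACTGTGAactgggcattt
ID2, miR-27a-3p site: ctcttacttggACTGTGAtattcgttatt
ID3, miR-27a-3p site: aggagcgaaggACTGTGAacttgtggcct
TGFBR2, miR-23a-3p site 1: cacgttcacaaAATGTGAaggtgtggaga
TGFBR2, miR-23a-3p site 2: attaaaataggAATGTGAatgctatatac

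Levels are given as CPM, counts scaled to a common library size with TMM factors. To set genes beside each other, the mean CPM of Scr was divided by transcript length in kilobases. By CPM per kilobase, *ID1* was the highest member in Scr at 493, followed by *ID3* at 234, *BMP4* at 212, *ID2* at 211, *BAMBI* at 92.8 and *TGFB1* at 61.0. These HepG2 libraries thus held much more message for *ID1*, *ID2*, *ID3* and *BMP4* than for the receptors, while *ID4* was at 1.46. Among the receptors, *TGFBR2* was at 31.7 CPM per kilobase and *ACVR1B* at 22.7, while *BMPR1A* was at 1.49 and *BMPR2* at 0.813. For *ACVR1B* the transcript used had 1791 bases, fewer than its longest annotated 3'-UTR of 2968, so its level per kilobase may be too high, and its place among the receptors is uncertain. At the low end, 7 members stayed under the filter on low counts in every comparison: *BMPR1B*, *ACVR1C*, *ACVRL1*, *BMP7*, *TGFB2*, *INHBB* and *LTBP1*, with 12 counts or fewer in every library. *ACVR1C*, *BMP7* and *TGFB2* had 0 counts in both Scr libraries. The other 34 members were tested in each comparison.

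**Figure D1:**
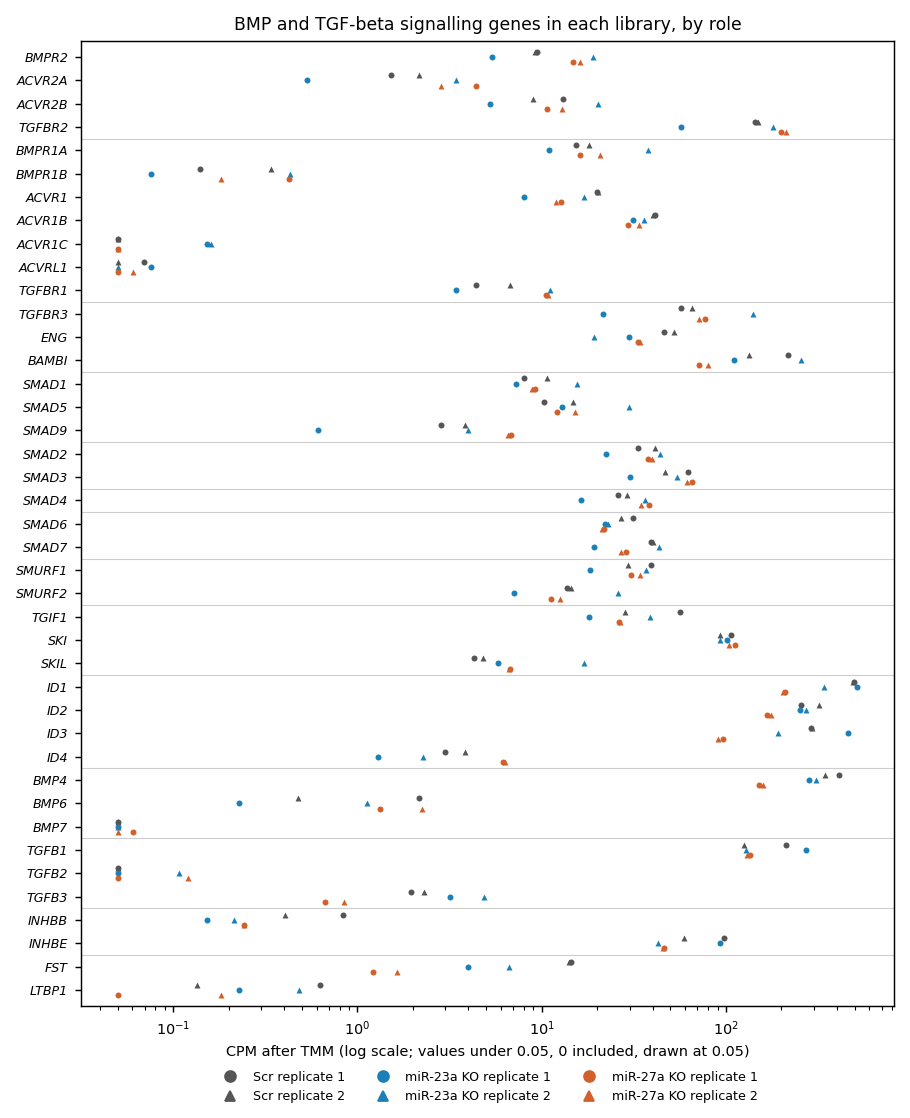
CPM after TMM scaling (log axis) of the 41 members in each of the 6 libraries, with circles for replicate 1, triangles for replicate 2 and lines between roles. In *TGFBR3* and *BMPR2* the miR-23a KO libraries lie on either side of Scr, while in *ID3* and *FST* both miR-27a KO libraries lie below Scr.

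The libraries of a group lay at very different distances from each other. Over the 34 members tested, the median log2 ratio of replicate 2 to replicate 1 was 1.05 for miR-23a KO, and 0.03 for both Scr and miR-27a KO. In miR-23a KO, 21 of 34 members (61.8%) were over 2-fold apart, against 1 in Scr (2.94%) and 0 in miR-27a KO. Over all genes these shares were 43.3% for miR-23a KO, 5.50% for Scr and 1.15% for miR-27a KO. *TGFBR3*, the co-receptor betaglycan, had 21.4 CPM in miR-23a KO replicate 1 and 139.6 in replicate 2, with 57.2 and 65.3 in Scr. *ID3* went the other way, with 457 CPM in replicate 1 and 191 in replicate 2. These ratios of replicate 2 to replicate 1 were 2.68 and -1.25 on the log2 scale, the highest and the lowest among the members. Across the members, the ratio in miR-23a KO had a Spearman correlation of -0.68 with the GC content of the transcript, against -0.58 in Scr and -0.09 in miR-27a KO. Across all genes it was -0.68, -0.46 and -0.10. These correlations are across genes, which share their libraries and are not independent replicates. The coefficient of variation between replicates was 0.159 in the fit of miR-27a KO against Scr and 0.446 in that of miR-23a KO against Scr. What set the miR-23a KO libraries apart was not tested.

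**Figure D2:**
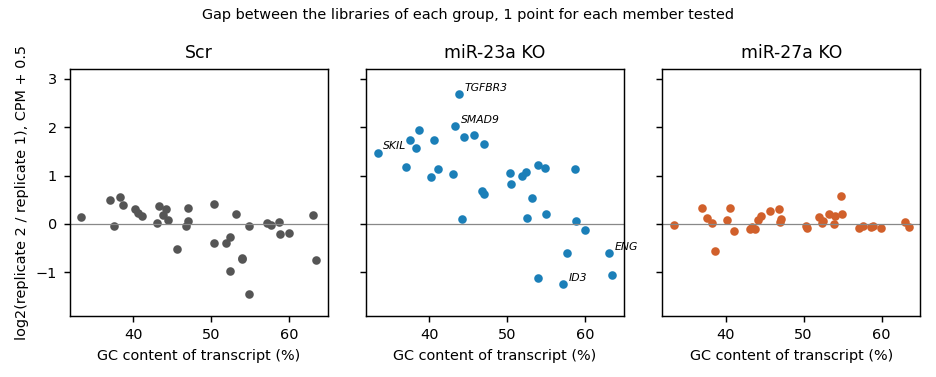
Log2 ratio of replicate 2 to replicate 1 (CPM plus 0.5) against the GC content of the transcript in percent, with 1 point for each of the 34 members tested and a panel for each group. The points of miR-23a KO slope downwards with GC content, from 2.68 for *TGFBR3* to -1.25 for *ID3*, and those of miR-27a KO stay near 0.

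In miR-27a KO cells, the genes *ID1* (gene ID 3397), *ID2* (3398) and *ID3* (3399), the ligand gene *BMP4* (652), the decoy receptor gene *BAMBI* (25805), the type I receptor gene *ACVR1* (90) and the antagonist gene *FST* (10468) fell, and the type II receptor gene *BMPR2* (659) rose. A gene was called where the fitted fold change was over 1.5 and the adjusted p under 0.05. By the quasi-likelihood test of edgeR, 1 of the 34 members tested rose and 7 fell, where 3.52% of 13820 genes rose and 6.74% fell. The share that rose was near that of all genes, and the members that fell were more frequent than among all genes, a description that carries no test. Their median log2 fold change was -0.07, with a range from -3.32 for *FST* to 0.99 for *SMAD9*, and the median of all genes was 0.01. In addition, *TGFBR2* was higher and *ENG* and *SMAD7* lower with an adjusted p below 0.05 but a fold below 1.5. With GC and length correction *ENG* was at -0.31 and *SMAD7* at -0.34 on the log2 scale, and neither then had an adjusted p below 0.05 in edgeR. For 9 members both libraries of miR-27a KO were higher than either of Scr, where 32.4% of all genes were, and for 15 members lower, against 31.9%. At an adjusted p under 0.001, edgeR called 0 members, and 0.0145% of genes rose and 0.0145% fell. At an unadjusted p under 0.05, 7 members were higher and 13 lower, where 1902 and 2545 of the 13820 genes were. With an adjusted p under 0.001, DESeq2 called 6 members lower and 0 higher, with 617 genes lower and 276 higher in all, and limma called 0 members.

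**Figure D3:**
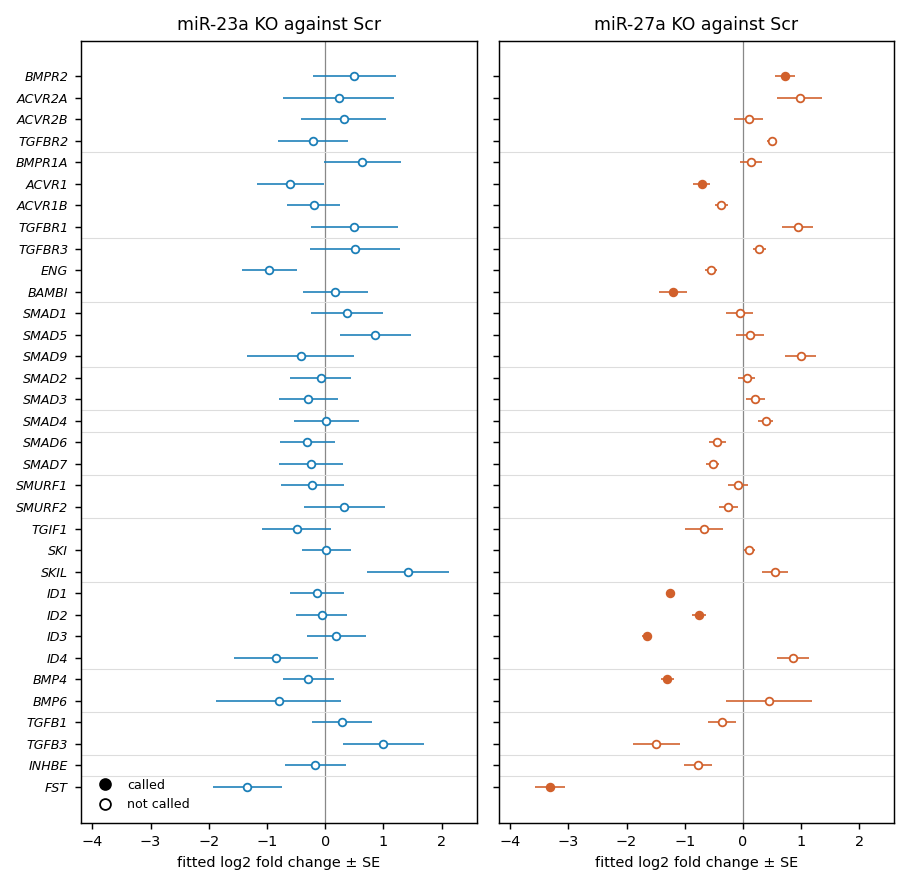
Fitted log2 fold change with its standard error (SE) for the 34 members tested, in miR-23a KO (left) and miR-27a KO (right) against Scr, with filled points for called members. The called members of miR-27a KO run from *FST* at -3.32 to *BMPR2* at 0.72, and no point is filled in miR-23a KO.

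These calls depended on the libraries in the fit. With either miR-27a KO library left out, 4 members were called lower, *BMP4*, *FST*, *ID1* and *ID3*, and 0 higher, while the genes called higher and lower went from 487 and 931 to 111 and 313 without replicate 1 and to 82 and 252 without replicate 2. Without Scr replicate 1, 3 members were called higher and 9 lower, and without Scr replicate 2, 5 and 9, with 1030 genes called higher and 1240 lower in the first case and 1908 and 1808 in the second. In a single fit of all 6 libraries, which takes in the spread of miR-23a KO, 0 members were called by edgeR and 7 were lower at an unadjusted p under 0.05, where 748 of 14163 genes were.

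Among the ligands, *BMP4* was the leading BMP gene. It had 413 and 344 CPM in Scr, against 284 and 308 for miR-23a KO and 151 and 158 for miR-27a KO. All KO libraries lay below both Scr libraries. In miR-27a KO it fell by 1.30 on the log2 scale (SE 0.11), with an adjusted p of 0.00701 in the quasi-likelihood test of edgeR with Benjamini-Hochberg adjustment, and the call was kept without each library in turn, with values from -1.42 to -1.15. In miR-23a KO its log2 fold change was -0.29 (SE 0.44). *TGFB1*, the leading TGF-beta ligand gene and a cytokine that restrains epithelial growth, had 212 and 126 CPM in Scr, against 270.5 and 129 for miR-23a KO and 135 and 129.6 for miR-27a KO. Its groups overlapped, and its log2 fold change of -0.36 in miR-27a KO (SE 0.24) went to 0.07 without Scr replicate 1 and to -0.68, past the thresholds, without Scr replicate 2. *TGFB3* was low, with 28 and 34 counts in Scr, against 42 and 90 for miR-23a KO and 11 and 14 for miR-27a KO. Its miR-27a KO libraries lay below Scr by a log2 fold change of -1.49 (SE 0.40) with an adjusted p of 0.0702 (the quasi-likelihood test of edgeR, Benjamini-Hochberg), and at -1.59 it passed without Scr replicate 1. *INHBE*, the gene of a liver-made activin subunit, had 98.2 and 59.2 CPM in Scr, against 93.4 and 42.7 for miR-23a KO and 46.0 and 45.8 for miR-27a KO. Its log2 fold change in miR-27a KO was -0.78 (SE 0.24, adjusted p = 0.0940 in the quasi-likelihood test of edgeR with Benjamini-Hochberg adjustment), and it was called in 3 of 8 alternatives, DESeq2 among them, and without Scr replicate 2, where it was -1.10, while without Scr replicate 1 it was -0.36. *BMP6* had 7 to 37 counts in the Scr and miR-27a KO libraries, and *BMP4* was the ligand gene among the members that edgeR called.

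*FST* encodes follistatin, a secreted protein that binds activins and some BMPs and keeps them from their receptors. It had 207 and 207 counts in Scr, against 52 and 123 for miR-23a KO and 20 and 27 for miR-27a KO. By CPM the Scr libraries were the highest and the miR-27a KO libraries the lowest, with no overlap between any of the groups. The fitted fold change in miR-27a KO was 9.97, and *FST* fell by 3.32 on the log2 scale (SE 0.26), with an adjusted p of 0.00538 in the quasi-likelihood test of edgeR with Benjamini-Hochberg adjustment. The call was kept without each library in turn. The fitted log2 value for miR-23a KO was -1.34 (SE 0.59), with an unadjusted p of 0.0528 and an adjusted p of 1.00 in the quasi-likelihood test of edgeR. *LTBP1*, the gene of a latent TGF-beta binding protein, had at most 9 counts in a library.

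The type II receptor genes were led per kilobase by *TGFBR2*, which encodes the receptor that binds TGF-beta itself. It had 143 and 149 CPM in Scr, against 56.8 and 179 for miR-23a KO and 199 and 212 for miR-27a KO. Both miR-27a KO libraries were above Scr, and the miR-23a KO libraries lay on either side of it. The log2 fold change in miR-27a KO was 0.49 (SE 0.08, adjusted p = 0.0242 in the quasi-likelihood test of edgeR with Benjamini-Hochberg adjustment), a fold change of 1.40 that stayed under the fold threshold. *BMPR2*, the BMP receptor gene with sites of both miRNAs, had 9.45 and 9.19 CPM in Scr, against 5.40 and 19.0 for miR-23a KO and 14.7 and 16.1 for miR-27a KO. In miR-27a KO it was 1.65-fold higher, close to both thresholds, with an adjusted p of 0.0498 (the quasi-likelihood test of edgeR with Benjamini-Hochberg adjustment). The call was lost without either miR-27a KO library, where the log2 values stayed between 0.67 and 0.79, and it held in 1 of 8 alternatives, the fit with limma. Over these alternatives the log2 value ran from 0.41, with GC and length correction and under the fold threshold, to 0.74, and the adjusted p from 0.0488 to 0.985 (edgeR, DESeq2 and limma, Benjamini-Hochberg). *ACVR2A*, an activin receptor gene, was at 22 and 32 counts in Scr, against 7 and 64 for miR-23a KO and 73 and 47 for miR-27a KO, with a log2 fold change of 0.97 in miR-27a KO (SE 0.39) that did not pass. It was 1.24, past the thresholds, without Scr replicate 2 and 0.62 without miR-27a KO replicate 1.

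Of the type I receptor genes, *ACVR1* encodes a receptor that takes part mostly in BMP signals, and its 3'-UTR holds a miR-27a-3p site. It had 20.0 and 20.2 CPM in Scr, against 7.99 and 17.0 for miR-23a KO and 12.8 and 11.9 for miR-27a KO. All 4 KO libraries were below Scr. In miR-27a KO it fell by 0.71 on the log2 scale (SE 0.15, adjusted p = 0.0382 in the quasi-likelihood test of edgeR with Benjamini-Hochberg adjustment), and the call was lost without either miR-27a KO library and with no filter on low counts, at values from -0.76 to -0.64 over the fits with a library left out. *ACVR1B*, an activin receptor gene, had 41.3 and 40.1 CPM in Scr, against 31.3 and 36.0 for miR-23a KO and 29.4 and 33.7 for miR-27a KO. Its log2 fold changes were small, -0.37 in miR-27a KO (SE 0.12) and -0.20 in miR-23a KO (SE 0.45), and neither passed. *TGFBR1*, the partner of TGFBR2, had 4.38 and 6.69 CPM in Scr, against 3.42 and 11.1 for miR-23a KO and 10.6 and 10.8 for miR-27a KO. Its log2 fold change of 0.94 in miR-27a KO (SE 0.27) had an adjusted p of 0.0769 (the quasi-likelihood test of edgeR with Benjamini-Hochberg adjustment), and it passed without Scr replicate 1 and without Scr replicate 2, at 0.68 and 1.29.

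*BAMBI* encodes a receptor without a kinase that blocks BMP and TGF-beta signals and is itself a target of both. It had 216 and 133 CPM in Scr, against 110.3 and 257 for miR-23a KO and 71.6 and 80.2 for miR-27a KO. The miR-27a KO libraries were the lowest of all, and the miR-23a KO libraries reached beyond Scr on both sides. In miR-27a KO it fell by 1.20 on the log2 scale (SE 0.24, adjusted p = 0.0346 in the quasi-likelihood test of edgeR with Benjamini-Hochberg adjustment). Without either miR-27a KO library, and in the fit with no filter on low counts, it was no longer called, and its values ran from -1.51 to -0.80 over the fits with a library left out. *ENG*, the gene of endoglin, a co-receptor best known from endothelial cells, had 46.2 and 52.1 CPM in Scr, against 29.6 and 19.2 for miR-23a KO and 33.3 and 34.2 for miR-27a KO. All KO libraries lay below Scr. For miR-27a KO the fitted log2 value was -0.55 (SE 0.11) at an adjusted p of 0.0369 in the quasi-likelihood test of edgeR with Benjamini-Hochberg adjustment, with a fold of 1.46 under the threshold that passed without Scr replicate 1. *TGFBR3* had 77.4 and 71.3 CPM in miR-27a KO and a log2 fold change of 0.28 (SE 0.11).

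**Figure D4:**
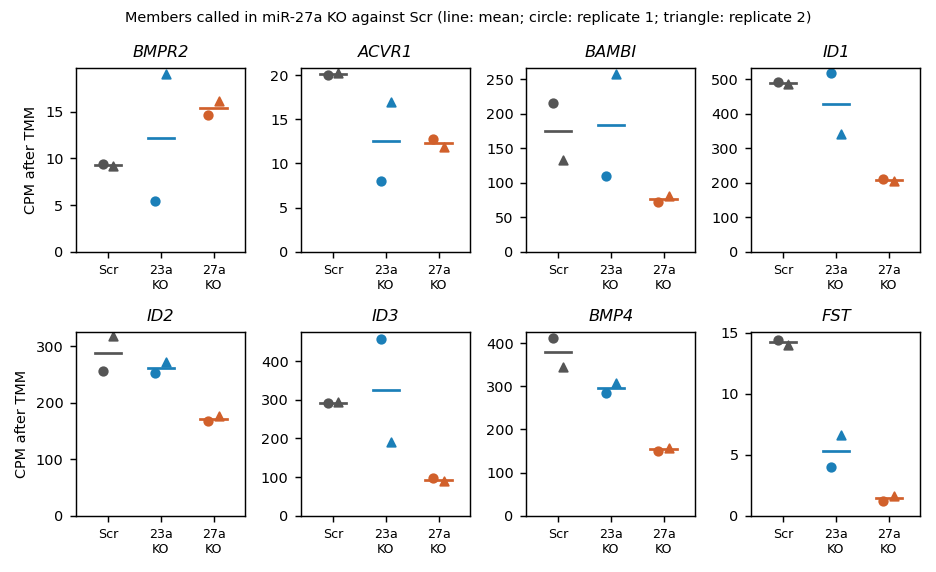
CPM after TMM scaling of the 8 members called in miR-27a KO against Scr, with a circle for replicate 1, a triangle for replicate 2 and a line at the mean of each group (linear axis from 0). Both miR-27a KO libraries lie outside the Scr range in all 8 panels, and the miR-23a KO libraries spread on either side of Scr in *BMPR2*, *BAMBI*, *ID1* and *ID3*.

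*BAMBI* and *BMP4* both fell in miR-27a KO, and a window around a start site of each is printed. They were picked after their values were seen, because both hold the core of a BMP response element, GGCGCC. The windows run from 250 bases before to 50 bases after the start, from RefSeq on GRCh38.p14, and 37 of the 41 members had one. A single window was kept for each gene. The GENCODE genes of *BMP4* and *ID2* reach further upstream than their windows, so a match may depend on the start used. GGCGCC reads the same on both strands and was found in 11 of the 37 member windows, while 19.0% of 27305 windows of the same length held it. *BAMBI* had 3 matches in chr10:28677271-28677570 on the plus strand, and *BMP4* had 2 in chr14:53955001-53955300 on the minus strand. Of the other called members, *ACVR1*, which fell, and *BMPR2*, which rose, also held it. *ID1*, *ID2*, *ID3* and *FST*, which fell, did not in these windows. Members that were not called held it too, with 4 matches in *ACVR1B* and 2 in *SMAD3*, and *INHBB*, which was not tested for expression, held 3. Whether GGCGCC had a part in any change was not tested. The 8-base SMAD box, GTCTAGAC, was found in the *SMAD6* window alone among members and in 0.2% of all windows. The letters CAGACA on either strand, which hold the 4-base core that SMAD proteins bind, were in 5 of the 37 member windows and in 16.8% of all windows. Capitals mark GGCGCC.
BAMBI, start site window: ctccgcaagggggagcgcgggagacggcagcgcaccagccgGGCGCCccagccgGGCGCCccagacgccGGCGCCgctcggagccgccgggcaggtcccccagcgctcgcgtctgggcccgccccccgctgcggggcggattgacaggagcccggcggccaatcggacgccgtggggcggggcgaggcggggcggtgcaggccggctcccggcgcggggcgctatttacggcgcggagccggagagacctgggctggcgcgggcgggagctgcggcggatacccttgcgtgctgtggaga
BMP4, start site window: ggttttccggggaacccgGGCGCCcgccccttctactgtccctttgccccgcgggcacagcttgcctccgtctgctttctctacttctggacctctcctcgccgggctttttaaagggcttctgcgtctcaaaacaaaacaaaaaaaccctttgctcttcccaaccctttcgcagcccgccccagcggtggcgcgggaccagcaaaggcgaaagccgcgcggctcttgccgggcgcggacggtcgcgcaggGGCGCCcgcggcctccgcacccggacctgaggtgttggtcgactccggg

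Of the 8 SMAD genes, 0 were called by edgeR in miR-27a KO, with log2 fold changes from -0.52 for *SMAD7* to 0.99 for *SMAD9*. *SMAD1*, which transmits BMP signals, had 7.99 and 10.7 CPM in Scr, against 7.23 and 15.6 for miR-23a KO and 9.15 and 8.85 for miR-27a KO. *SMAD3*, of the TGF-beta and activin branch, had 62.4 and 46.9 CPM in Scr, against 30.1 and 54.1 for miR-23a KO and 65.5 and 61.4 for miR-27a KO. For both genes the miR-27a KO libraries overlapped with Scr, with log2 fold changes in miR-27a KO of -0.06 (SE 0.23) and 0.21 (SE 0.16). *SMAD4*, the partner that both branches share, had 375 and 430 counts in Scr, against 214 and 673 for miR-23a KO and 629 and 573 for miR-27a KO. Both miR-27a KO libraries lay above Scr, by 0.39 on the log2 scale (SE 0.13), which did not pass. *SMAD9*, a BMP-branch gene of low level, had 2.85 and 3.85 CPM in Scr, against 0.609 and 3.98 for miR-23a KO and 6.84 and 6.56 for miR-27a KO. Its log2 fold change of 0.99 in miR-27a KO (SE 0.27) had an adjusted p of 0.0707 in the quasi-likelihood test of edgeR with Benjamini-Hochberg adjustment, and it passed when either Scr library was left out, with values of 0.80 and 1.23. *SMAD7*, an inhibitory SMAD that is induced by the pathway, had 563 and 595 counts in Scr, against 254 and 801 for miR-23a KO and 470 and 449 for miR-27a KO. Its log2 fold change in miR-27a KO was -0.52 (SE 0.11, adjusted p = 0.0386 in the quasi-likelihood test of edgeR with Benjamini-Hochberg adjustment), which is 1.43-fold and under the fold threshold. Over the 8 SMAD genes, 5 had miR-27a KO values above and 3 below Scr, and at an unadjusted p under 0.05 there were *SMAD4* and *SMAD9* above and *SMAD6* and *SMAD7* below.

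Among the brakes of the pathway, *SMURF1*, a ubiquitin ligase that marks receptors and SMADs for degradation, had 561 and 436 counts in Scr, against 241 and 682 for miR-23a KO and 505 and 564 for miR-27a KO. *TGIF1*, a co-repressor of SMAD complexes, had 811 and 418 counts in Scr, against 236 and 715 for miR-23a KO and 436 and 444 for miR-27a KO. The Scr libraries of *TGIF1* were themselves far apart, and its log2 fold change of -0.67 in miR-27a KO (SE 0.32) ran from -0.09 without Scr replicate 1 to -1.08, past the thresholds, without Scr replicate 2. *SKIL*, which encodes the SMAD-binding co-repressor SnoN, had 4.31 and 4.80 CPM in Scr, against 5.78 and 16.9 for miR-23a KO and 6.72 and 6.62 for miR-27a KO. All KO libraries of *SKIL* were above Scr, and neither log2 fold change passed, at 1.42 (SE 0.70) in miR-23a KO and 0.55 (SE 0.23) in miR-27a KO. With no library left out, 0 of these 5 ligase and co-repressor genes were called in either KO group by edgeR, DESeq2 or limma.

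The ID genes encode helix-loop-helix proteins without a DNA-binding region that hold back differentiation factors. *ID1* had 493 and 487 CPM in Scr, against 517 and 342 for miR-23a KO and 210.1 and 204 for miR-27a KO. *ID3* had 291 and 293 CPM in Scr, against 457 and 191 for miR-23a KO and 96.2 and 90.9 for miR-27a KO. In both genes the Scr pair and the miR-27a KO pair were each tight and far apart, while the miR-23a KO libraries lay on either side of Scr. *ID1* fell by 1.25 on the log2 scale (SE 0.08, adjusted p = 0.00390) and *ID3* by 1.65 (SE 0.08, adjusted p = 0.00206) in miR-27a KO, in the quasi-likelihood test of edgeR with Benjamini-Hochberg adjustment. The latter was the smallest adjusted p among the members, and both calls were kept without each library in turn. *ID2* had 257 and 318 CPM in Scr, against 253 and 272 for miR-23a KO and 167 and 176 for miR-27a KO. It fell by 0.75 (SE 0.12, adjusted p = 0.0232, the quasi-likelihood test of edgeR with Benjamini-Hochberg adjustment), and the call was lost without Scr replicate 2 and without either miR-27a KO library, with values from -0.89 to -0.58 over the fits with a library left out. *ID4* had far fewer counts and stood apart, with 43 and 57 counts in Scr, against 17 and 42 for miR-23a KO and 102 and 105 for miR-27a KO. Its log2 fold change was 0.86 in miR-27a KO (SE 0.27), with an adjusted p of 0.0921 in the quasi-likelihood test of edgeR with Benjamini-Hochberg adjustment, and it was 1.06, past the thresholds, without Scr replicate 2. Across the 8 alternatives with no library left out (edgeR, DESeq2 and limma, Benjamini-Hochberg), the adjusted p lay between 5.97e-35 and 0.291 for *ID3* and between 1.17e-23 and 0.253 for *ID1*, each past 0.05 in the fit of all 6 libraries alone.

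In miR-23a KO cells, 0 members rose and 0 fell against Scr by the quasi-likelihood test of edgeR. The same held for all 13786 genes tested, with 0% higher and 0% lower at either threshold and a smallest adjusted p of 0.110 (Benjamini-Hochberg). At an unadjusted p under 0.05, edgeR gave 0 members, against 118 genes higher and 214 lower. DESeq2 and limma called 0 members too, while over all genes DESeq2 called 4 higher and 59 lower and limma 0. Of the members, 16 had a fitted value above Scr and 18 below, with a median log2 fold change of -0.07, where the median of all genes was 0.16. For 2 members, *SKIL* and *TGFB3*, both libraries of miR-23a KO were higher than either of Scr, against 8.87% of all genes. They were lower for 7 members, against 14.9% of all genes, and 4 of these were over 1.5-fold lower, *ACVR1*, *ENG*, *FST* and *ID4*. The fitted values ran from -1.34 for *FST* to 1.42 for *SKIL*. The value of *SKIL* was 0.34 without miR-23a KO replicate 2, 1.93 without miR-23a KO replicate 1 and 0.50 with GC and length correction. That of *TGFB3* was 0.59 without miR-23a KO replicate 2. This comparison shares the Scr libraries with that of miR-27a KO.

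The library that was kept decided the direction for many members in miR-23a KO. Without replicate 1, the median log2 fold change of the members was 0.15, with *SKIL* and *TGFBR3* called higher and *ENG* lower. Without replicate 2 the median was -0.75, with *ID3* called higher and *ACVR1*, *FST*, *SMAD7*, *TGFBR2* and *TGFBR3* lower. *TGFBR3* was thus called in opposite directions, at 1.23 without replicate 1 and -1.52 without replicate 2 on the log2 scale. Over all genes, 338 were then called higher and 256 lower without replicate 1, and 1697 and 933 without replicate 2. Leaving out Scr replicate 1 or Scr replicate 2 gave 0 members in either direction, with 4 and 9 genes called lower.

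Between the KO groups, with no Scr library in the fit, 0 members differed by the quasi-likelihood test of edgeR. Over all 13841 genes 0% were higher and 0% lower in miR-23a KO, at either threshold, and the smallest adjusted p was 0.0803 (Benjamini-Hochberg). At an unadjusted p under 0.05, *BMP4*, *FST*, *ID1*, *ID3* and *TGFB3* were higher and *ID4* lower in miR-23a KO, and 645 genes in all were higher and 562 lower. DESeq2 called *ID3* higher, and limma called 0 members. The fitted log2 differences were 1.80 for *ID3* (SE 0.53), 1.90 for *FST* (SE 0.53), 1.06 for *ID1* (SE 0.38) and 0.94 for *BMP4* (SE 0.32). These 4 genes were called higher in miR-23a KO both without miR-23a KO replicate 1 and without miR-23a KO replicate 2, with values over the fits with a library left out from 1.02 to 2.29 for *ID3*, 1.48 to 2.21 for *FST*, 0.72 to 1.33 for *ID1* and 0.88 to 0.99 for *BMP4*. A fit with the replicate number as a block and with GC and length correction called *FST* and *TGFB3* higher and *SMAD9* lower. *TGFB3* was also called higher in both fits without a miR-23a KO library, and *ID4* and *SMAD9* were called lower in both. For 8 members both libraries of miR-23a KO were higher than either of miR-27a KO, against 18.7% of all genes, and for 7 lower, against 20.8%. The first 8 included *ID1*, *ID2*, *ID3*, *BMP4*, *BAMBI* and *FST*. The median log2 difference of the members was 0.11, as was that of all genes. Without miR-23a KO replicate 1, 15 members were called higher and 3 lower, and without miR-23a KO replicate 2, 7 and 16, with medians of 0.37 and -0.54. Over all genes these fits called 2772 higher and 2135 lower, and 3584 and 3719. Without miR-27a KO replicate 1 or replicate 2, 0 members were called, with 27 and 25 genes called higher and 49 and 47 lower.

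Other genes of the pathways were read from lists of 113 genes, of which 93 had values and 69 were tested. In miR-27a KO, 4 of the 69 rose and 14 fell by the quasi-likelihood test of edgeR, where 3.52% of all genes rose and 6.74% fell, with a median log2 fold change of -0.26. The target genes made up most of those that fell. The lists were chosen with earlier results of these data known, so these counts are a description and carry no test. Of 13 TGF-beta target genes tested, 6 fell and 0 rose, *CDKN1A*, *CDKN2B*, *CTGF*, *JUNB*, *KLF10* and *SNAI1*, with a median log2 fold change of -0.79. Of 12 BMP target genes tested, which include 7 members, 7 fell and 1 rose, with a median of -1.10. *ATOH8*, a BMP-induced transcription factor gene of the liver, *MSX1* and *GATA2* fell beside *ID1*, *ID2*, *ID3* and *BAMBI*, and *HEY1*, also a target of Notch signals, rose. Among 11 extracellular regulators *FURIN*, *LTBP2*, *NBL1* and *THBS1* fell and *FSTL3* rose, and of 11 nuclear partners *E2F4* fell. With GC and length correction the call of *E2F4* was lost, and with no filter on low counts those of *BMP8B*, *LTBP2* and *GATA2*. *BMP8B* was the gene that rose among 9 other ligands, and *NEO1*, which encodes the receptor neogenin, the gene that rose among 2 other receptors. *BMP8B* has a close copy, *BMP8A*, so its counts may be shared. With no library left out and no replicate block, 0 of 18 intracellular modulators were called by edgeR or limma. Their log2 fold changes in edgeR ran from -0.75 to 0.49, with 2 lower at an unadjusted p under 0.05. *PPP1R15A* was called lower by DESeq2, with the replicate number as a block and without Scr replicate 2, where *MAP3K7* and *TRAF6* were called higher.

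The other pathway genes with the largest fitted changes in miR-27a KO were *CDKN2B*, *ATOH8*, *NBL1*, *FSTL3* and *HEY1*. *ATOH8* had 190 and 92 counts in Scr, against 26 and 130 for miR-23a KO and 12 and 13 for miR-27a KO, and it fell by 3.67 on the log2 scale (SE 0.49, adjusted p = 0.0154 in the quasi-likelihood test of edgeR with Benjamini-Hochberg adjustment). The Scr libraries of *ATOH8* were far apart, and its value ran from -4.11 to -3.03 over the fits with a library left out. *NBL1*, the gene of a secreted BMP antagonist, had 115 and 69.2 CPM in Scr, against 174 and 74.0 for miR-23a KO and 8.12 and 9.99 for miR-27a KO, and it fell by 3.35 (SE 0.29, adjusted p = 0.00701 in the quasi-likelihood test of edgeR with Benjamini-Hochberg adjustment). *FSTL3*, which encodes a follistatin-like inhibitor of activin, had 59.3 and 14.7 CPM in Scr, against 36.3 and 27.2 for miR-23a KO and 226 and 216 for miR-27a KO. It rose by a log2 fold change of 2.58 (SE 0.60, adjusted p = 0.0487, the quasi-likelihood test of edgeR with Benjamini-Hochberg adjustment), where its relative *FST* fell. The Scr libraries of *FSTL3* were far apart, so its value ran from 1.90 to 3.91 over the fits with a library left out, and its call was lost without a filter on low counts and in the fit of all 6 libraries. *HEY1* had 31 and 38 counts in Scr, against 1 and 15 for miR-23a KO and 237 and 227 for miR-27a KO, a rise of 2.56 (SE 0.23, adjusted p = 0.00701 in the quasi-likelihood test of edgeR with Benjamini-Hochberg adjustment). *CDKN2B*, a cell cycle inhibitor gene induced by TGF-beta, had 27 and 27 counts in Scr, against 7 and 30 for miR-23a KO and 2 and 1 for miR-27a KO. The ratio of miR-27a KO to Scr was 0.0490 for *CDKN2B*, with a 95% interval from 0.00979 to 0.151 (exact Clopper-Pearson on the counts, counting error only), and its call was lost without either miR-27a KO library.

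**Figure D5:**
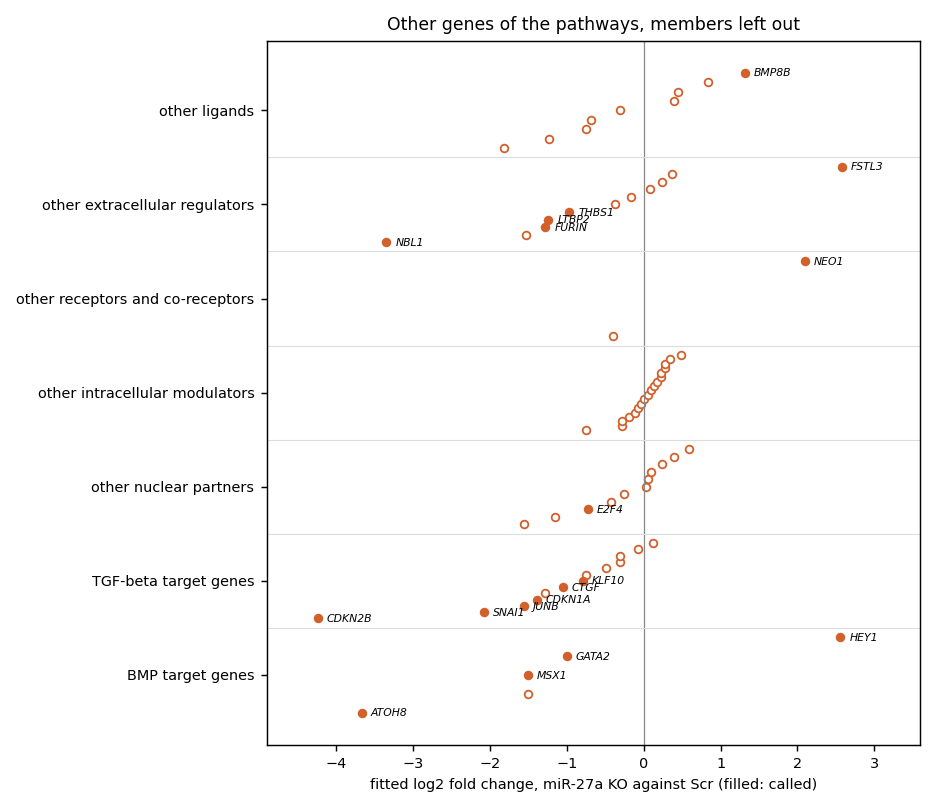
Fitted log2 fold change in miR-27a KO against Scr of other pathway genes tested, by list and without the members, with filled and named points for called genes. The TGF-beta target genes lie mostly left of 0, and *FSTL3*, *HEY1*, *NEO1* and *BMP8B* are the named points to the right.

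Of the 18 called genes, *CDKN1A*, *CTGF*, *JUNB*, *ATOH8*, *MSX1*, *HEY1*, *FURIN*, *NBL1*, *FSTL3* and *NEO1* were called without each library in turn. Fewer other pathway genes were called in each direction without either miR-27a KO library, and more without either Scr library. The calls over the whole table moved the same way, so these shifts are not particular to the pathway lists. The median log2 fold change of the other pathway genes ran from -0.31 without Scr replicate 2 to -0.12 without Scr replicate 1. That of all genes lay between 0.00 and 0.02 over the fits with a library left out. In the fit of all 6 libraries, 0 of these other pathway genes were called by edgeR, with 4 higher and 12 lower at an unadjusted p under 0.05. In miR-23a KO, 0 of the 69 were called by edgeR, with 3 lower at an unadjusted p under 0.05, and their median was 0.01. DESeq2 called 1 of them there, *HAMP*, the hepcidin gene, lower, and limma called 0. It is given here because of that call, and was chosen after its values were seen. *HAMP* had 123 and 52.5 CPM in Scr, against 13.4 and 21.6 for miR-23a KO and 31.0 and 30.5 for miR-27a KO, so that all KO libraries lay below Scr. Its log2 fold changes were -2.24 in miR-23a KO (adjusted p = 0.920) and -1.51 in miR-27a KO (adjusted p = 0.0634) in the quasi-likelihood test of edgeR with Benjamini-Hochberg adjustment. In miR-27a KO *HAMP* was called lower by DESeq2, under the replicate block with and without GC and length correction, and without either Scr library. In miR-23a KO it was also called with the block and that correction together and without miR-23a KO replicate 2. Without either miR-23a KO library, other pathway genes were called in both directions in miR-23a KO, as were genes over the whole table. Their median log2 fold change was -0.16 without miR-23a KO replicate 1 and -0.42 without miR-23a KO replicate 2. Over all genes these medians were -0.05 and -0.08. Between the KO groups 0 of the other pathway genes were called by edgeR and 0 by limma. DESeq2 called 3 higher and 3 lower, where it called 259 and 218 of all 13841 genes. In edgeR, 7 were higher and 6 lower at an unadjusted p under 0.05, where 645 and 562 of all genes were. With GC and length correction edgeR called 2 higher and 3 lower, where 101 and 89 of 13191 genes were called. With the replicate block added it called 5 and 5, where 397 and 321 genes were called. Without a miR-23a KO library more were called in both directions, as over all genes. Their median log2 difference was then 0.24 without miR-23a KO replicate 1 and -0.20 without miR-23a KO replicate 2. Over all genes these medians were 0.01 and -0.08.

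Genes of other liver cell types were read as a check of the labelled cells, since *ENG* and *ACVRL1* are best known from endothelium. All 10 hepatocyte markers had values. By CPM per kilobase, *SERPINA1* at 5773 and *ALB* at 5640.4 were the highest in Scr. The summed CPM of all 10 was 36855 and 42418 in Scr, against 40535 and 37146 for miR-23a KO and 32162 and 32074 for miR-27a KO. Single hepatocyte genes changed more than the sum in miR-27a KO. *AFP* fell 17.3-fold (adjusted p = 0.00262), *ALB* 6.04-fold (adjusted p = 0.00538) and *FGB* 4.13-fold (adjusted p = 0.0212), and *TF* rose 2.37-fold (adjusted p = 0.0212), all in the quasi-likelihood test of edgeR with Benjamini-Hochberg adjustment. Their part in the members' differences was not tested. Of 7 endothelial markers, 6 had values and summed to 8.06 and 7.57 CPM in Scr, against 4.41 and 7.32 for miR-23a KO and 4.91 and 6.62 for miR-27a KO, led by *PECAM1*, with *CDH5*, *TEK* and *CLDN5* under 1 CPM in every library. The markers of other cell types were thus at or near the bottom of the range, apart from single genes. Of 8 stellate cell and fibroblast markers, 5 had values and summed to 216 and 182 CPM in Scr, against 199.5 and 132 for miR-23a KO and 153 and 150.3 for miR-27a KO. Most of this was *ACTA2*, with 199 and 153 CPM in Scr, while *COL1A1*, *PDGFRA* and *DES* were under 1 CPM everywhere. *PDGFRB* had 17.4 and 29.2 CPM in Scr, against 29.8 and 19.6 for miR-23a KO and 5.63 and 5.12 for miR-27a KO, and it fell 4.34-fold in miR-27a KO (adjusted p = 0.0166, quasi-likelihood test of edgeR with Benjamini-Hochberg adjustment). All 6 leukocyte markers had values and summed to 168 and 157 CPM in Scr, against 139.9 and 72.6 for miR-23a KO and 113 and 109 for miR-27a KO. *CD68* held most of it, at 162 and 152 CPM in Scr, and *PTPRC*, *CD3E* and *ITGAM* were under 1 CPM in every library. In bulk RNA, fewer cells of a type and less RNA per cell cannot be told apart.

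The members were also split by their sites. In miR-27a KO, the 12 tested members with a miR-27a-3p site had a median log2 fold change of 0.20 and the 22 without a site -0.36. Over all genes tested these medians were 0.07 for 2111 genes with a site and -0.01 for 10165 without. A split of the same miR-27a KO values by miR-23a-3p sites gave a like gap, with 0.13 against -0.44 for the members and 0.14 against -0.02 for all genes. Of the 12, *BMPR2* rose and *ACVR1*, *ID2* and *ID3* fell, so that called members with a site went both ways. The rise rests on *BMPR2* alone, whose call held in 1 of 8 alternatives. Of the 2111 genes with a site, 93 rose and 134 fell, and of the 10165 without a site, 347 rose and 744 fell. In miR-23a KO, the 13 tested members with a miR-23a-3p site had a median of -0.08 and the 21 without -0.06, against 0.23 and 0.15 over all genes. Split by miR-27a-3p sites, the same miR-23a KO values had medians of 0.21 with a site and -0.21 without for the members, and 0.18 and 0.17 for all genes. Members with a site also had transcripts of lower GC content, with a median of 42.1% against 52.8% without for miR-27a-3p. Across the members, the gap between replicates went with GC content in miR-23a KO (Spearman correlation -0.68) and in Scr (-0.58), which is in both comparisons. GC content was thus lower in members with a site. Its part in these medians was not tested.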

How the data were processed

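RNA of 6 HepG2 libraries was sequenced by the authors, and the values used were the expected counts per gene that the authors deposited. The columns carry FPKM in their names, but between 34.5% and 40.8% of the values above 0 in a library were exactly whole as deposited, with no tolerance, and the sums differed between libraries, so they were taken to be estimated counts and rounded. The submitters' processing notes name HISAT, StringTie, Cufflinks and GATK. Which of these made the counts, with which genome build, was not given in the sources used here. The labels name an Illumina TruSeq RNA kit and the methods a stranded mRNA kit. Whether the counts keep the reads of a gene apart from those of an antisense partner is therefore not known. The table had 0 value columns left unused, 0 blank symbols and no comparisons of the authors.

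Each of the 3 pairs of groups was fitted in edgeR 4.0.16 (R 4.3.3) with its filter on low counts, TMM scaling, a quasi-likelihood fit and Benjamini-Hochberg adjustment over all genes tested. The steps were first tested on simulated data. Alternatives were median-ratio scaling, DESeq2 1.42.0, limma 3.58.1 on log2 CPM with a prior count of 2, no filter, all 6 libraries in 1 fit, the replicate number as a block, correction for GC content and length (loess), these last together, and each library left out in turn. Gene lengths, GC content and 3'-UTRs came from GENCODE release 29, to which 89.5% of the genes were matched by gene ID or name. Length was that of the transcript with the longest coding sequence, and 0.5 was added to CPM for ratios within a pair. The members and lists were chosen with earlier results of these data known. Values in every library were given for *BMPR2*, for called members, and for the member of each role with the highest level per kilobase in Scr, together with members whose KO libraries both lay outside the Scr range at a fold over 1.5. Among other pathway genes they were given for the 5 called genes with the largest fitted log2 fold change. The host transcript of the miRNAs was not analysed here.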

Additional observations from a re-analysis of the deposited data

Results flagged for a closer look

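For 6 genes, both libraries of miR-23a KO lay on 1 side of both Scr libraries and both libraries of miR-27a KO on the other, which set them aside for a closer look. They were 2 of the 34 members (5.88%) and 4 of 69 other pathway genes (5.80%), a share near the 6.21% of all 13841 genes. The log2 values below compare miR-23a KO with miR-27a KO, with adjusted p from the quasi-likelihood test of edgeR and Benjamini-Hochberg adjustment, and none passed in that fit of all 4 KO libraries. *ID4* was at -1.80 (adjusted p = 0.352) and *TGFB3* at 2.41 (adjusted p = 0.239). *HEY1* was at -4.88 (adjusted p = 0.176), *NEO1* at -4.16 (adjusted p = 0.0961), *BMP8B* at -2.15 (adjusted p = 0.284) and *NEDD4L* at -0.83 (adjusted p = 0.689). In other fits, *HEY1* and *NEO1* were called lower by DESeq2, with all 6 libraries in 1 fit, with the replicate number as a block, with GC and length correction and with both of these, and *HEY1* also without each KO library in turn. *TGFB3* and *BMP8B* were called with the block and that correction together. Without either miR-23a KO library *TGFB3*, *ID4*, *BMP8B* and *NEO1* were called, and *NEDD4L* without miR-23a KO replicate 2 alone.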

How the results depend on the processing

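Beside the counts over members and all genes, 705 values for single genes stayed on their side of the thresholds with their direction, 65 became weaker, 33 stronger and 37 reversed. Where a value below moved or reversed, the cause was not tested. A library left alone in its group was assumed to vary like the other group. The libraries share only a replicate number. The correlation of deviations from the group mean between libraries of the same number was 0.152 for miR-23a KO against Scr, 0.011 for miR-27a KO against Scr and 0.018 between the KO groups over 14163 genes.

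For miR-23a KO against Scr, where edgeR called 0 genes in either direction, DESeq2 called 4 genes higher and 59 lower. Genes called lower were 10 without a filter and 3 with all 6 libraries in 1 fit. The replicate block called 7 higher and 62 lower, GC and length correction 1 and 14, and the block with that correction 30 and 112. Values reversed under the block for *ACVR2A* (-0.25) and *TGFBR3* (-0.09), and in limma for the same genes (-0.28 and -0.10). Under GC and length correction they reversed for *BMPR2* (-0.22), *ID1* (0.02), *ACVR2A* (-0.46), *TGFBR1* (-0.01) and *INHBE* (0.13), and with the block added for *BMPR2* (-0.17), *ID1* (0.02), *ACVR2A* (-0.54), *TGFBR1* (-0.01), *INHBE* (0.04) and *TGFBR3* (-0.01). With each library left out in turn, genes called higher ran from 0 to 1697 and lower from 4 to 933, members from 0 to 2 and 0 to 5, and the members' median from -0.75 to 0.15. The ranges of single genes were -1.78 to 0.94 for *ACVR2A*, -1.23 to 0.03 for *TGIF1*, -0.84 to 0.25 for *INHBE*, -0.66 to 0.61 for *BAMBI*, -0.25 to 0.10 for *ID2*, -0.57 to 0.64 for *ID3*, -2.44 to 0.29 for *SMAD9*, -0.79 to 1.07 for *BMPR2*, -0.47 to 0.08 for *ID1*, -0.69 to 1.05 for *TGFBR1* and -1.52 to 1.23 for *TGFBR3*.

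For miR-27a KO against Scr, 0 members were called higher under median-ratio scaling, DESeq2, no filter, all 6 libraries in 1 fit, the replicate block, GC and length correction, and the last with the block. With all 6 libraries 0 were called lower, with 3 genes higher and 61 lower in all. Without a filter 304 genes were higher and 588 lower. The members' median was -0.19 under GC and length correction. With each library left out, members called ran from 0 to 5 higher and 4 to 9 lower, genes from 82 to 1908 and 252 to 1808, and the median from -0.27 to -0.08. The ranges were -0.27 to 0.13 for *SMURF1*, -0.68 to 0.07 for *TGFB1* and -0.25 to 0.17 for *SMAD1*.

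Between the KO groups DESeq2 called 1 member higher, and the block with GC and length correction 2 higher (*FST* and *TGFB3*) and 1 lower (*SMAD9*). Genes called higher and lower were 259 and 218 in DESeq2, 109 and 109 with all 6 libraries, 211 and 189 with the replicate block, 101 and 89 with GC and length correction, 397 and 321 with both, and 8 and 13 in limma. *ACVR1* reversed to -0.07 under the block and -0.08 in limma. With each library left out, members ran from 0 to 15 higher and 0 to 16 lower, genes from 25 to 3584 and 47 to 3719, the median from -0.54 to 0.37, *BMPR2* from -1.51 to 0.30 and *ACVR1* from -0.62 to 0.45. With sites of 6 bases, 23 and 25 members had a miR-23a-3p or miR-27a-3p site, in place of 15 and 13.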
